A study of Mus musculus with 6 samples.

Results

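The genes described here are 10 genes of the blood vessel lining and of its main growth factor pathways, namely Pecam1, Cdh5, Kdr, Flt1, Tek, Tie1, Emcn, Vegfa, Angpt1 and Angpt2. They were taken by name: every array probe that is not a control and carries one of these names in the array annotation was included, whatever its signal. This gave 19 of the 56605 probes of the array, and 16 of them are among the 39916 probes that were tested. Transcriptome analysis (TA) was done on the whole kidney of 3 female MRL mice (MRL/MpJ) and 3 female LPR mice (MRL/MpJ-Fas lpr/lpr), all 6 months old. Each kidney was measured on its own array, without pooling. Both groups have the MRL/MpJ background, and LPR mice, a model of lupus nephritis, are homozygous for the lpr mutation of Fas, a death receptor gene. The study compared them for transcripts related to tertiary lymphoid tissue that forms around renal vessels. No mouse was treated.

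Blood vessels are lined by endothelial cells, which in the kidney form the fenestrated capillaries of the glomerulus, the peritubular capillaries and the lining of arteries and veins. Vascular endothelial growth factor A, encoded by Vegfa and made in the kidney mainly by podocytes and tubule cells, signals through the receptor that Kdr encodes. The receptor encoded by Flt1 binds the same ligand tightly but signals weakly, and a soluble form of it traps the ligand. Angiopoietin 1 activates the receptor Tek (Tie2) and keeps vessels quiescent, angiopoietin 2 is released by endothelial cells and often opposes it, and Tie1 is a related receptor that modulates Tek.

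All levels below are log2 signals relative to the 75th percentile of the same array, so 0 is that percentile, and a log2 change is LPR minus MRL. Probes entered the limma test when 3 or more of the 6 arrays read them well above background, and a change was called at an adjusted p under 0.05. Over all tested probes 6.54% were called higher and 6.07% lower in LPR mice. Where a gene has several tested probes, the brightest stands for it. Between 69.6% and 73.5% of the spots on an array were well above background, and no spot was saturated. Taken over all tested probes, the median log2 change was -0.13. The tests and confidence intervals of the single genes below are against a change of 0, not against this median. Of the 2 Fas probes, the brighter gave a log2 change of -0.47 that did not pass (adjusted p = 0.235), and the other was read above background by 3 LPR arrays and 0 MRL arrays, which makes it at least 1.47-fold brighter in LPR mice. All 10 markers of the kidney tubule that were looked up were measured, as the tissue label has it.

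The probes are 60 bases long, and each lies once on the array. No member probe shares its sequence with another probe, and the longest run of bases that any 2 probes of the same gene share is 8, so the probes of a gene measure different stretches of it. Kdr, Flt1 and Vegfa have several probes whose results are set side by side below, and the first 30 bases of most of these probes are shown here with the position of the whole probe on the minus strand of the mouse genome build mm9, as the array annotation places it. Which exon or untranslated region a probe lies in was not analysed here.
Kdr A_51_P316553, chr5:76329309-76329368: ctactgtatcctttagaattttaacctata
Kdr A_55_P2745062, chr5:76353385-76353444: ttgtggaattggagggaaataaatcctcta
Kdr A_52_P478193, chr5:76357639-76357698: gtacaataacatgcaaaggtatatcaaagg
Flt1 A_51_P398723, chr5:148373791-148373850: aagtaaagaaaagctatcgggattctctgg
Flt1 A_55_P2800423, chr5:148448888-148448947: tcctcagaacaaaacctgaactgaactgag
Flt1 A_55_P2735980, chr5:148450688-148450747: aggaggaatgattgtaccacacaaagtcat
Flt1 A_52_P405145, chr5:148465976-148466035: tccctatcccaactacacattcaatcttct
Vegfa A_52_P638895, chr17:46154387-46154446: cagatcggtgacagtcactagcttgtcctg
Vegfa A_51_P482552, chr17:46155512-46155571: actggattcgccattttcttatatctgctg
Vegfa A_55_P2741794, chr17:46159226-46159282: aaagggaaagggtcaaaaacgaaagcgcaa

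Kdr, the main signalling receptor for VEGF, was lower in LPR mice. Its bright probe A_51_P316553 (NM_010612) read 2.17, 1.94 and 2.07 in MRL mice 1 to 3, and 1.40, 1.68 and 1.39 in LPR mice 1 to 3. All 3 LPR mice lay below all 3 MRL mice, with a gap of 0.25 between the groups. The log2 change was -0.57 (standard error 0.13, 95% confidence interval -0.87 to -0.26), a 1.48-fold lower signal, and it passed in limma (adjusted p = 0.0327). The call lies close to the threshold. It was lost without MRL 1, MRL 2, MRL 3, LPR 1 or LPR 3 (adjusted p = 0.0653 to 0.105 in limma) and kept without LPR 2 (adjusted p = 0.0226), while the log2 change stayed between -0.66 and -0.51 in the 20 other settings that were run. The other Kdr probes, 24016 and 28270 bases away from the bright probe toward the start of the gene, were not well above background on any of the 6 arrays and give no change. In tissue measured as a whole, fewer cells of a type and less RNA per cell cannot be told apart.

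Flt1, the decoy-like VEGF receptor, did not pass. Its brightest probe A_51_P398723 (NM_010228) read 3.16, 2.92 and 3.22 in MRL mice and 2.68, 2.72 and 2.87 in LPR mice. The LPR mice lay below the MRL mice by a gap of 0.06. The log2 change was -0.35 (standard error 0.12, 95% confidence interval -0.64 to -0.06, adjusted p = 0.112 from limma). The other Flt1 probes lie 75037, 76837 and 92125 bases from the brightest and had log2 changes of -0.44, -0.19 and -0.67. On each of these 3 probes the groups overlapped, and the adjusted p was 0.229, 0.451 and 0.197. The last of them was well above background in 2 of 3 mice of each group. All 4 Flt1 probes thus gave a negative change, and none passed. Whether Kdr and Flt1 differed in their change was tested within each mouse. The change of Flt1 minus that of Kdr was 0.22 on the log2 scale, with overlapping groups (exact permutation test, two-sided, p = 0.2), in a design of 3 against 3 mice in which the smallest possible p is 0.1. It was 0.11 without LPR 3 and 0.33 without LPR 2.

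**Figure D1:**
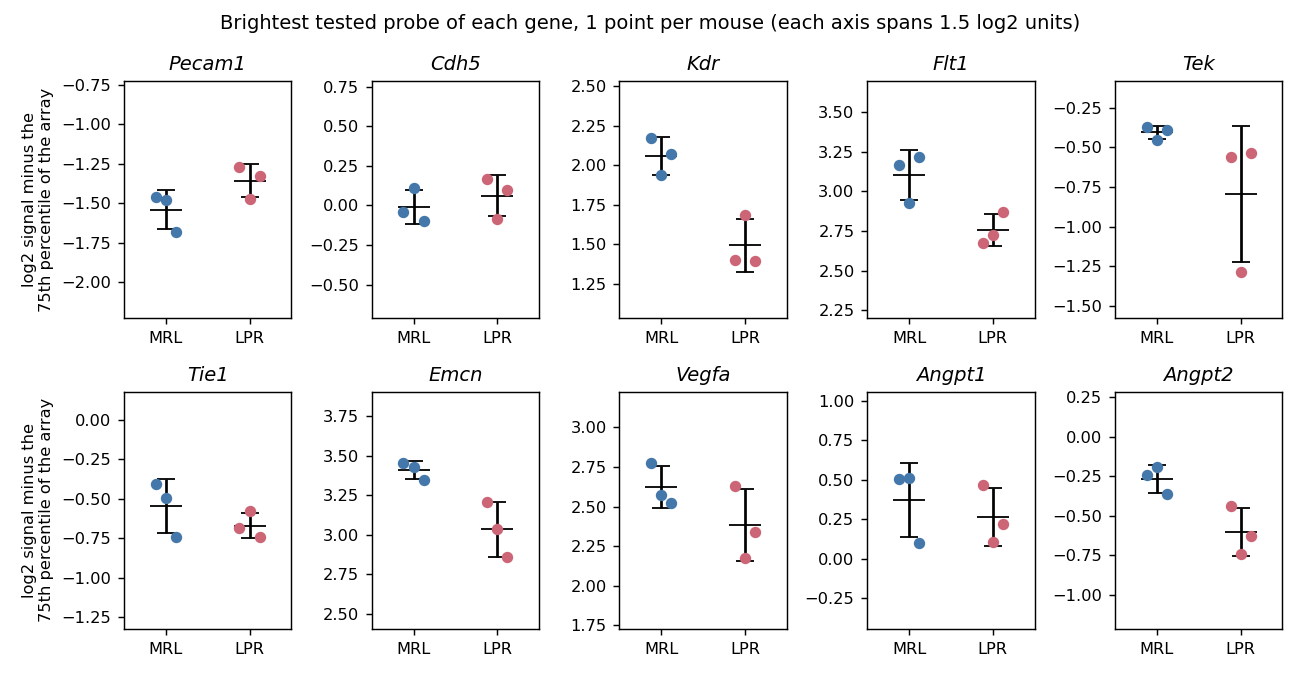
Log2 signal minus the 75th percentile of the array for the brightest tested probe of each of the 10 genes, with 1 point per mouse, in 3 MRL and 3 LPR mice. Long bars are means and error bars are the SD, and every vertical axis spans 1.5 log2 units at a different level, so the distance between groups can be compared across genes but the level cannot. For Kdr, Flt1, Tek, Emcn and Angpt2 all 3 LPR mice lie below all 3 MRL mice.

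Tek, the angiopoietin receptor, read -0.37, -0.45 and -0.39 in MRL mice and -0.56, -1.29 and -0.53 in LPR mice on its single probe A_51_P130374 (chromosome 4, 94540861 to 94540919 in mm9). All LPR mice lay below the MRL mice by a gap of 0.08, and LPR 2 was far below the other LPR mice. The log2 change of -0.39 (standard error 0.21, 95% confidence interval -0.89 to 0.11) did not pass in limma (adjusted p = 0.257), and without LPR 2 it was -0.14 (adjusted p = 0.339). Tie1, the related receptor without a firmly established ligand of its own, was measured by A_51_P177171 (chromosome 4, 118144132 to 118144191). It read -0.41, -0.49 and -0.74 in MRL mice and -0.69, -0.58 and -0.74 in LPR mice, so the groups overlapped. Its log2 change was -0.12 (95% confidence interval -0.42 to 0.17, adjusted p = 0.531 from limma). The change of Tie1 minus that of Tek was 0.27 (exact permutation test, two-sided, p = 0.6). It was -0.03 without LPR 2, 0.16 without MRL 3 and 0.43 without LPR 3. With the array position in the fit it was 0.02, a value that rests on LPR 1 alone against the MRL mice.

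The angiopoietins also did not pass. Angpt1, the Tek agonist made by mural and other stromal cells, read 0.50, 0.51 and 0.10 in MRL mice and 0.47, 0.11 and 0.22 in LPR mice on A_66_P118301 (chromosome 15, 42256343 to 42256402). The groups overlapped, and the log2 change was -0.11 (95% confidence interval -0.49 to 0.27, adjusted p = 0.682 from limma). Angpt2, which is stored in endothelial cells and released on activation, read -0.24, -0.19 and -0.37 in MRL mice and -0.44, -0.74 and -0.63 in LPR mice on A_55_P2503142 (chromosome 8, 18690323 to 18690382). All LPR mice lay below the MRL mice by a gap of 0.07, with a log2 change of -0.33 (standard error 0.12, 95% confidence interval -0.62 to -0.05, adjusted p = 0.116 from limma). A second Angpt2 probe, A_55_P2892835, was read above background by 1 MRL array and 0 LPR arrays, so it was not tested and gives no change. The change of Angpt2 minus that of Angpt1 was -0.23, and -0.14 without MRL 3. Taken within each mouse, the Angpt2 signal minus the Angpt1 signal was lower in every LPR mouse than in every MRL mouse (exact permutation test, two-sided, p = 0.1, the smallest p that 3 against 3 mice allow).

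Vegfa, the ligand, was measured by 4 probes, all with a negative change and none past the threshold. The brightest, A_52_P638895 (NM_001025250), read 2.78, 2.57 and 2.52 in MRL mice and 2.63, 2.18 and 2.34 in LPR mice. The groups overlapped on it through LPR 1, and the log2 change was -0.24 (standard error 0.15, 95% confidence interval -0.59 to 0.11, adjusted p = 0.315 from limma). A_51_P482552, on the same transcript and 1065 bases away, gave -0.21 with overlapping groups (adjusted p = 0.299). On A_52_P249424 (NM_001025257) the MRL mice read 1.09, 0.98 and 1.08 and the LPR mice 0.62, 0.87 and 0.44. On this probe, which lies 7929 bases from the brightest, all LPR mice were below all MRL mice, with a log2 change of -0.40 (adjusted p = 0.0972). On A_55_P2741794 the MRL mice read -2.18, -2.17 and -2.18 and the LPR mice -2.38, -3.03 and -2.54, again with no overlap, and the log2 change was -0.47 (adjusted p = 0.124). These last 2 probes passed after normexp background correction (adjusted p = 0.0470 and 0.0413), and the first of them also without LPR 2.

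None of the 3 junction and surface genes of endothelial cells passed. Pecam1, an adhesion molecule of endothelial junctions that platelets and leukocytes also carry, read -1.46, -1.48 and -1.68 in MRL mice and -1.27, -1.47 and -1.33 in LPR mice on A_55_P2087087 (chromosome 11, 106540864 to 106540923). The groups overlapped, and the log2 change was 0.18 (95% confidence interval -0.09 to 0.46, adjusted p = 0.322 from limma). Cdh5, the vascular endothelial cadherin of adherens junctions, read -0.04, 0.11 and -0.10 in MRL mice and 0.17, -0.08 and 0.10 in LPR mice on A_52_P248604 (chromosome 8, 106668159 to 106668218). Its log2 change was 0.07 with overlapping groups (95% confidence interval -0.21 to 0.35, adjusted p = 0.717). Over all 6 mice, Pecam1 and Cdh5 were the only members with a positive change. Emcn, a sialomucin of capillary and venous endothelium, read 3.45, 3.43 and 3.34 in MRL mice and 3.21, 3.04 and 2.86 in LPR mice on A_51_P153124 (chromosome 3, 137093811 to 137093870). All LPR mice lay below the MRL mice by a gap of 0.14. The log2 change was -0.37 (standard error 0.12, 95% confidence interval -0.66 to -0.09) and did not pass (adjusted p = 0.0930), though it did with normexp background correction (adjusted p = 0.0380) and with an intensity trend in limma (adjusted p = 0.0465).

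Of the 10 genes, 1 was called lower and 0 higher. Over all 25799 genes tested by their brightest probe, 5.39% were lower and 7.12% were higher, so 1 lower gene of 10 is near that background. At an unadjusted p under 0.05, 4 of the 10 genes were reached, against 29.3% of all genes. The log2 changes of the members had a median of -0.29, against -0.12 over all genes. Of the 10 changes 8 were negative, against 67.2% of all genes, and 6 lay below the median of all tested probes, against 48.2% of all genes. In 5 of the 10 genes (Kdr, Flt1, Tek, Emcn and Angpt2) all LPR mice lay below all MRL mice, which held for 25.4% of all genes, and in 0 of them did all LPR mice lie above, against 11.8%. By probe, 14 of the 16 tested probes had a negative change, against 68.3% of all tested probes, and on 7 of the 16 all LPR mice lay below, against 26.6% of all tested probes. Of the 16 tested probes, 15 were well above background on all 6 arrays.

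**Figure D2:**
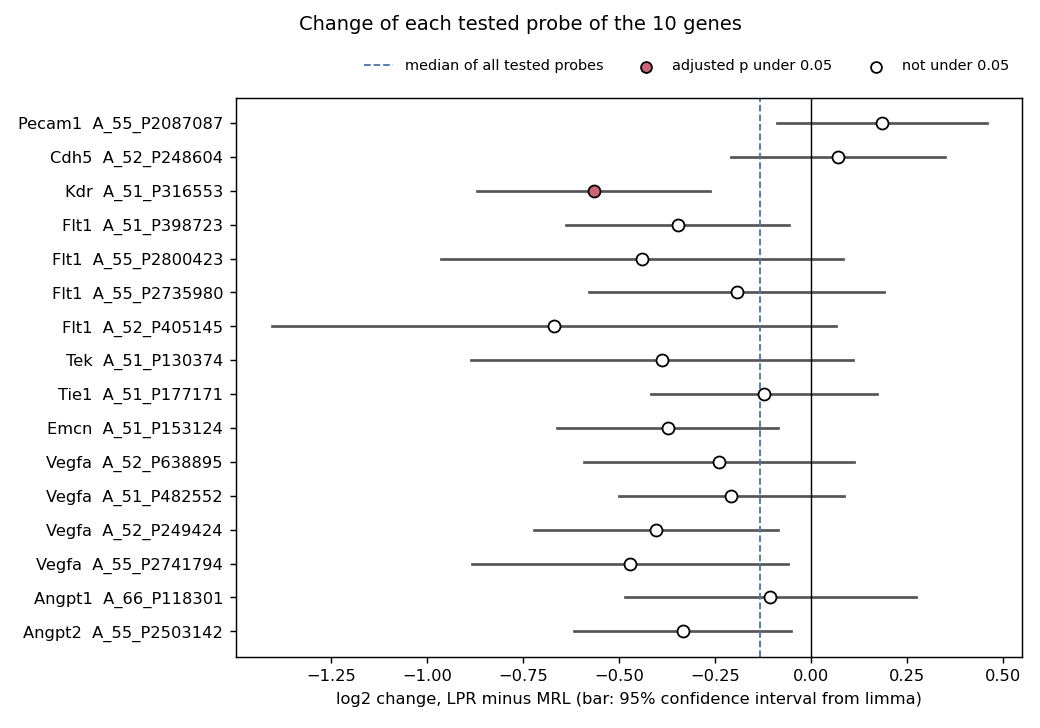
Log2 change (LPR minus MRL) of each of the 16 tested probes of the 10 genes on the horizontal axis, with its 95% confidence interval from limma, and 1 row per probe. The dashed line is the median of all tested probes, -0.13, and the filled point is the probe of Kdr at -0.57, which alone has an adjusted p under 0.05.

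The 6 arrays lay on 1 slide and in 1 scan. In the file headers each array carries a position of 2 numbers, of which the first was 1 for the 3 MRL mice and LPR 1, and 2 for LPR 2 and LPR 3. Among the arrays whose first number was 1, with 3 MRL mice against LPR 1 alone, the log2 change of Kdr was -0.66 (adjusted p = 0.108 from limma) and that of Flt1 was -0.43, both larger in size than over all mice. There the change was smaller for Emcn at -0.20, for Angpt2 at -0.17 and for Tek at -0.16. The change was positive for Angpt1 at 0.10 and close to 0 for Vegfa at 0.01. Pecam1 was at 0.27, Cdh5 at 0.18 and Tie1 at -0.14 among these arrays. With a single LPR mouse, the spread behind these values comes from the MRL mice only, as moderated by limma over all tested probes. With the first number in the fit over all 6 arrays, the log2 changes of the members were the same. LPR 2 and LPR 3 share their first number with no MRL mouse, so that fit also sets LPR 1 alone against the MRL mice. The part that the array position plays in these values was not tested further.

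**Figure D3:**
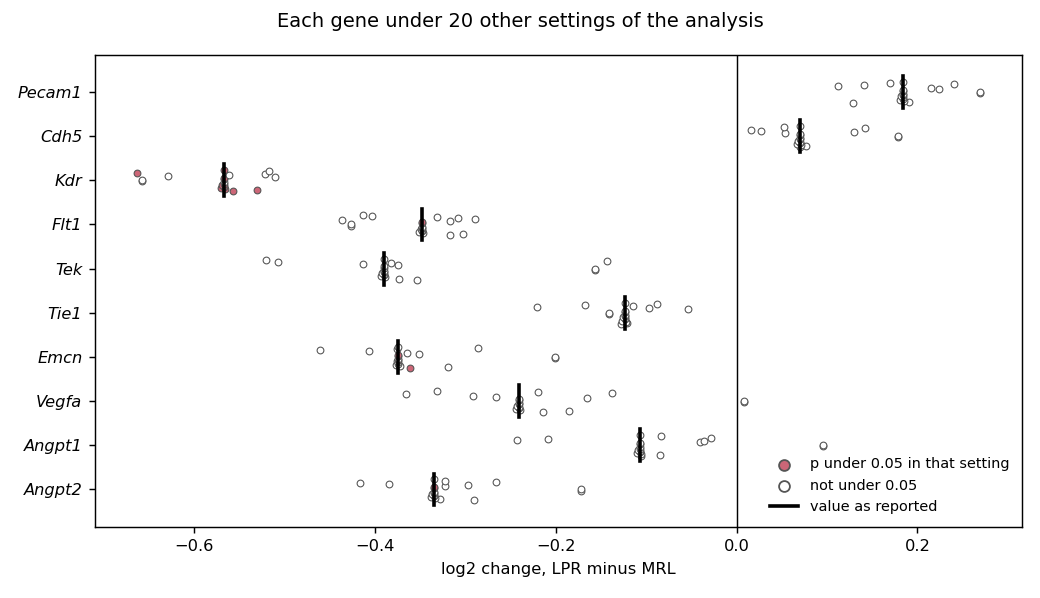
Log2 change (LPR minus MRL) of each of the 10 genes on the horizontal axis, with the reported value as a vertical bar and each of 20 other settings of the analysis as a point. Filled points had a p under 0.05 in that setting, adjusted except for the unadjusted test of the methods. Kdr lies between -0.66 and -0.51 in all of them. Vegfa and Angpt1 cross 0 with the array position in the fit or among arrays of the first position only. Both of these set LPR 1 alone against the MRL mice.

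The promoters of the members whose groups did not overlap are shown for the 4 genes of these 5 that have a window in the table used, which is credited to RefSeq (build GRCm38.p6). Each window holds the 250 bases before the annotated start, and capitals mark GGAA on either strand (written TTCC on the other strand), the core that ETS factors bind. ETS factors are known as regulators of many endothelial genes.
Kdr, chr5:75978456-75978705, minus strand: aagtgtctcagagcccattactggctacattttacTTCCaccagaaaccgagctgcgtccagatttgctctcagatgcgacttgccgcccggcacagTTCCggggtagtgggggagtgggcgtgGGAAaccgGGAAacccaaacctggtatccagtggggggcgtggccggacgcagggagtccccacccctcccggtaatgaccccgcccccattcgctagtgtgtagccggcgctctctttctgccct
Flt1, chr5:147726012-147726261, minus strand: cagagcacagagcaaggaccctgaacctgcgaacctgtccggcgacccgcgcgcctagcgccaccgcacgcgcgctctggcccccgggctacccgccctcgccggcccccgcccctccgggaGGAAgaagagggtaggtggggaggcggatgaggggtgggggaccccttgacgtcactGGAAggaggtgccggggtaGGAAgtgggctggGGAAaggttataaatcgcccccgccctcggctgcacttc
Tek, chr4:94739039-94739288, plus strand: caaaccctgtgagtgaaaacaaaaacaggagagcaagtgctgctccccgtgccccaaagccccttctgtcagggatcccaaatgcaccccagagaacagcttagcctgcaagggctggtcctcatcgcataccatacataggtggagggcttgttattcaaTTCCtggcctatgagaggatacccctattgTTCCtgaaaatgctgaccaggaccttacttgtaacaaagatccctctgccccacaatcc
Emcn, chr3:137340828-137341077, plus strand: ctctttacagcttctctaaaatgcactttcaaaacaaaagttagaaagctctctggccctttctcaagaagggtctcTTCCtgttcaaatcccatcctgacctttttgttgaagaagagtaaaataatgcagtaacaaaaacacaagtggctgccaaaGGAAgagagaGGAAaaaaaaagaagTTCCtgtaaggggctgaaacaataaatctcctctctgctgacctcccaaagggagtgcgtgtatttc
The core stands 4 times in the windows of Kdr, Flt1 and Emcn and 2 times in that of Tek. Its longer form CCGGAA, which overlaps it, stands 1 time in the window of Kdr and in none of the other 3. Of all 32851 windows of this length in the table, 93.4% hold GGAA on either strand, with a median of 3 per window, and 3952 hold CCGGAA, so a match is a description only. The window of Tie1, a gene with overlapping groups, holds GGAA 7 times. Windows were found for 6 of the 10 genes.

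Of the ligands and coreceptors around Kdr and Flt1, none of the 6 measured genes (Vegfb, Vegfc, Vegfd, Pgf, Nrp1 and Nrp2) passed by its brightest probe. Their median log2 change was -0.29, against -0.12 over all genes, of which 7.12% were called higher and 5.39% lower. Vegfd, a ligand known mainly from lymphatic growth, came closest at 0.49 (adjusted p = 0.0600 from limma), and on its brightest probe all LPR mice lay above the MRL mice. Vegfb, a ligand of Flt1, gave -0.35 (adjusted p = 0.128). The coreceptor Nrp2 had probes of opposite sign, with -0.35 on the brightest (adjusted p = 0.158 from limma). The dimmer A_55_P2735175 gave 0.55 and was called higher (adjusted p = 0.0310). Another Nrp2 probe, A_52_P93910, gave 0.26 with all LPR mice above all MRL mice, and did not pass (adjusted p = 0.177). Among 6 tested genes around the angiopoietins, 1 was higher and 5 did not pass, with a median of 0.01. The higher gene was Svep1, a large matrix protein that binds Tie1. It read 0.41, 0.52 and 0.43 in MRL mice and 1.01, 1.23 and 0.91 in LPR mice, with no overlap. The log2 change of Svep1 was 0.60 (standard error 0.12), with an adjusted p of 0.0222, while its dimmer probes gave 0.88 and 0.23 and did not pass (adjusted p = 0.0866 and 0.470). This call was lost in 8 of 20 other settings, among them 4 of the 6 in which 1 mouse was left out.

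Among 12 genes of sprouting and vessel remodelling, 1 was lower, 1 was higher and 10 did not pass, with a median of -0.17. The shares over all genes were 5.39% lower and 7.12% higher, with a median of -0.12. The lower gene was Esm1, a proteoglycan of endothelial tip cells whose expression is known to respond to VEGF. It read 3.11, 3.09 and 3.26 in MRL mice and 1.13, 1.66 and 1.91 in LPR mice on A_52_P257625 (chromosome 13, 114008204 to 114008263). The groups were more than 1 log2 unit apart. Its signal was 3.00-fold lower, a log2 change of -1.59 (standard error 0.20) with an adjusted p of 0.00316 from limma, and this exceeded in size the change of each of the 10 members. Pdgfb, with which endothelial cells recruit pericytes, was higher by 0.78 (standard error 0.10, adjusted p = 0.00389), and its dimmer probe was higher by 0.60 (adjusted p = 0.0337). The calls of Esm1 and Pdgfb were kept in 20 of 20 other settings. Dll4, the Notch ligand of tip cells, gave -0.53 with all LPR mice below the MRL mice (adjusted p = 0.0944).

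Of 7 tested inhibitors of angiogenesis, 2 were higher, 1 was lower and 4 did not pass, with a median of 0.07. By comparison, 7.12% of all genes were higher and 5.39% lower, with a median of -0.12. Thbs2, a matrix protein that binds VEGF and CD47, was higher by 1.17 (standard error 0.16, adjusted p = 0.00430 from limma). Serpinf1, the pigment epithelium-derived factor, was higher by 1.07 (standard error 0.20, adjusted p = 0.0157), and its other 2 probes were higher as well. The size of the Thbs2 change depended on the background correction, with a log2 change of 0.52 after normexp. The call of Thbs2 was kept in 19 of 20 other settings and that of Serpinf1 in 14, among them 3 of the 6 in which 1 mouse was left out. Vash1, an inhibitor that endothelial cells make, was called lower on its brightest probe, with a log2 change of -0.80 (adjusted p = 0.0164). That probe is placed on chromosome 6 and another on chromosome 4, whereas RefSeq has Vash1 on chromosome 12, and the Vash1 probe on chromosome 12 gave -0.10 (adjusted p = 0.644), so whether the call is of this gene cannot be told. None of 14 genes of the hypoxia response passed by its brightest probe, with a median of -0.20. Pdk1, a mitochondrial kinase, gave -0.40 on its brightest probe (adjusted p = 0.0749), and its dimmer probe A_51_P406429 was called lower at -0.52 (adjusted p = 0.0354). By the brightest probes, Ndrg1, a stress-induced gene, was nearest to the threshold at -0.45 (adjusted p = 0.0518). Car9, the carbonic anhydrase often used as a hypoxia marker, gave -0.38 (adjusted p = 0.0765).

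The wider set of endothelial genes showed few calls. Of 20 genes of general endothelial identity, 1 was higher, 0 were lower and 19 did not pass, with a median of -0.03. The higher gene was Ecscr, an endothelial surface protein of chemotaxis and signalling, at 0.53 (standard error 0.11, adjusted p = 0.0242 from limma). Genes of the glomerular (5), arterial (7) and venous or peritubular (6) endothelium gave 1 lower gene in all and 0 higher. That gene was Plat, the tissue plasminogen activator. It read 1.03, 1.10 and 1.23 in MRL mice and 0.75, 0.61 and 0.32 in LPR mice, with no overlap, and its log2 change was -0.56 (adjusted p = 0.0441). The calls of Ecscr and Plat were kept in 11 and 10 of 20 other settings, and each in 1 of the 6 in which 1 mouse was left out. Ehd3, a marker of glomerular endothelium, gave -0.02 (adjusted p = 0.915). In all 38 genes of these 4 lists together, 1 was higher and 1 was lower, against 7.12% and 5.39% of all genes. The log2 of the summed signal of the 20 identity genes was 6.04 to 6.19 in MRL mice and 6.13 to 6.24 in LPR mice.

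Of 5 tested genes of endothelial activation, 3 were higher, 0 lower and 2 did not pass, with a median of 1.00. Over all genes 7.12% were higher. Vcam1, an adhesion molecule for lymphocytes and monocytes, read 0.19, 0.02 and -0.04 in MRL mice and 2.35, 1.94 and 2.73 in LPR mice, and it was higher by 2.28 (standard error 0.20, adjusted p = 0.000591 from limma). Procr, the endothelial receptor of protein C, was higher by 1.51 (standard error 0.12, adjusted p = 0.000404), and Icam1, an adhesion molecule that leukocytes and epithelial cells also make, by 1.00 (standard error 0.10, adjusted p = 0.00105). On all 3 genes the groups did not overlap, and the calls were kept in 20 of 20 other settings. Which cells of the kidney gave these signals was not tested. Selp and Thbd did not pass, with log2 changes of 0.36 (adjusted p = 0.172) and 0.28 (adjusted p = 0.215). Sele, the endothelial selectin, was read above background by 2 LPR arrays and 0 MRL arrays, too few for a test.

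Markers of other cells that the whole kidney holds differed between the groups on some lists and not on others. Over all genes 7.12% were called higher and 5.39% lower. Of 10 leukocyte genes, 7 were higher and Ptprc, Itgam and Ms4a1 did not pass by their brightest probes, and the log2 of their summed signal was 5.23 to 5.48 in MRL mice and 6.98 to 7.06 in LPR mice. Among them were Cd3d (4.14) and Cd3e (1.89), subunits of the T cell receptor complex, Cd79a (1.88), a subunit of the B cell receptor complex, Lyz2 (3.15), a lysozyme of myeloid cells, and Adgre1 (2.84), a macrophage surface gene. The change of Cd79a was 0.63 with normexp background correction. That of Adgre1 was 3.62 without MRL 3, and its call was lost in 9 of 20 other settings. Probes of the same gene differed for Ptprc, the common leukocyte antigen, with 0.39 on the brightest and 3.02 on A_55_P2716281, which was called higher, and for Ms4a1, a B cell surface gene, with -0.70 on the brightest and 4.99 on A_55_P2802151, also called higher and above background on 2 of the 3 MRL arrays. Of 10 tubule genes, 3 were lower, and their summed signal was 9.78 to 9.84 in MRL mice and 9.42 to 9.53 in LPR mice. Calb1, the calcium buffer of the distal tubule, was among them with a log2 change of -1.19 (adjusted p = 0.0353 from limma). Its call was lost in 6 of 20 other settings, and those of the other lower genes, Lrp2 and Slc5a2, in 13 and 9. The change of Calb1 was -1.84 with the array position in the fit, which sets LPR 1 alone against the MRL mice. The summed signal of 8 pericyte and smooth muscle genes was 4.50 to 4.70 in MRL mice and 5.04 to 5.11 in LPR mice. Of these genes Acta2 (0.61) and Tagln (0.70), both contractile genes, were called higher. The call of Acta2 was lost in 5 of 20 other settings and kept in 3 of the 6 in which 1 mouse was left out. That of Tagln was lost in 2 of 20. Among 7 platelet genes 1 was higher, Pf4 at 1.92 (adjusted p = 0.00293), a chemokine of platelets. The other 6 did not pass. Changes on this list ran from -0.32 to 1.92, and 4 of the 7 lay above the median of all tested probes. The summed signal of the 7 was -1.07 to -0.68 in MRL mice and 0.03 to 0.70 in LPR mice. Such a sum weighs the brightest genes most, so it need not hold for each gene. Among 8 podocyte genes 1 was higher, and among 6 lymphatic genes 1 was higher, Pdpn at 0.52, which podocytes also make. The call of Pdpn was lost in 9 of 20 other settings, 5 of them with 1 mouse left out, and a dimmer probe of the lymphatic factor Prox1, A_55_P2733097, was called lower at -0.92 (adjusted p = 0.0179). The lymphatic sum was 2.08 to 2.28 in MRL mice and 2.52 to 2.94 in LPR mice, and the podocyte sum was 4.47 to 4.64 and 4.54 to 4.92. The part of these cells in the change of Kdr and of the other members was not tested.

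**Figure D4:**
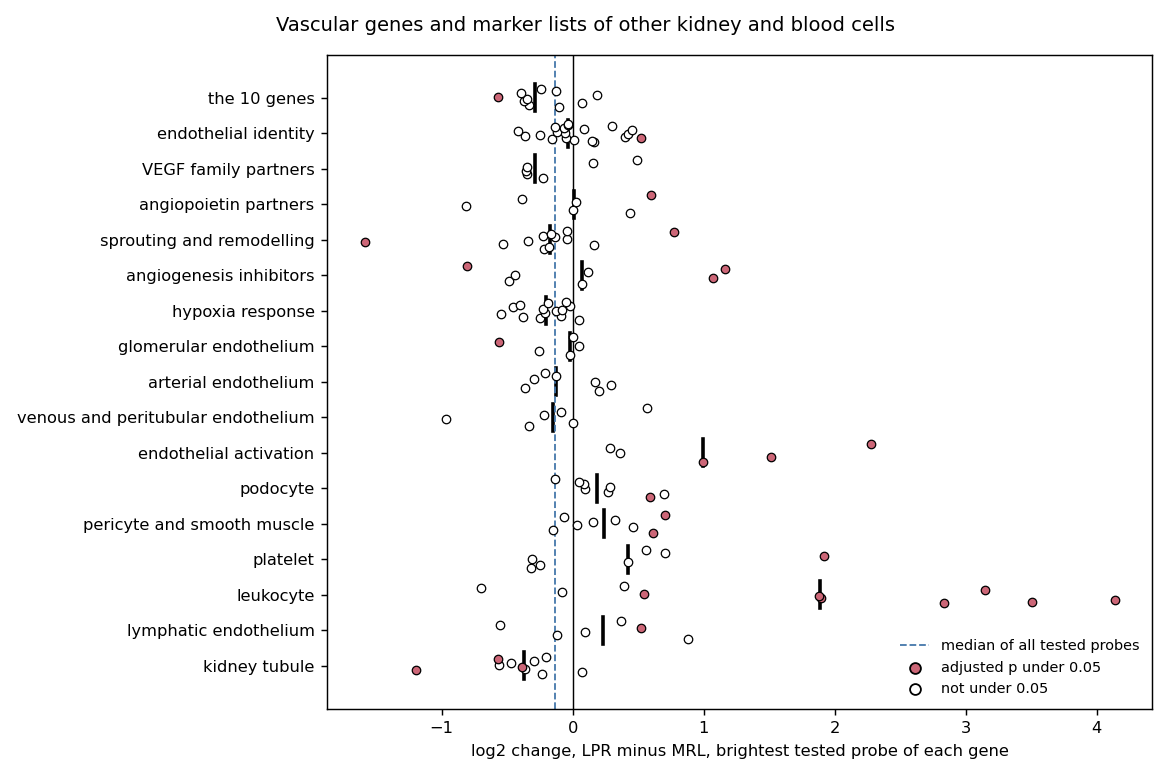
Log2 change (LPR minus MRL) on the horizontal axis for the brightest tested probe of each gene, with 1 row for the 10 genes and 1 row for each gene list, 1 point per gene, and the median of a list as a vertical bar. The 10 genes lie between -0.57 and 0.18 with 1 filled point (adjusted p under 0.05), the leukocyte genes reach 4.14, and the dashed line is the median of all tested probes.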

How the data were processed

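Total kidney RNA of 6 mice was labelled with Cy3 and hybridized to 1-colour Agilent SurePrint G3 mouse arrays, 6 arrays of 1 slide. RNA was isolated with Trizol according to the paper and with an RNeasy kit according to the labels. Per the labels and file headers, the authors deposited the intensity of each spot from Agilent Feature Extraction 12.0.3.1, background-subtracted and not normalized between arrays. They also deposited a table of ratios, which proved to be these intensities over the array's own 75th percentile, control spots counted in.

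Control spots were dropped here, as were the 73 to 90 of 59305 spots per array that the scanner software had marked as outliers. The intensities were then taken to log2, each array was shifted by its 75th percentile, and replicate spots were averaged. The 39916 probes that passed the filter, of 56605, were tested in R 4.3.3 with limma 3.58.1, and p-values were adjusted over all of them by Benjamini-Hochberg. The limma fit and the adjustment, but not the steps before them, had been tested on simulated probe values. Summed signals of a list are log2 of the sum over the brightest probe of each tested gene. For a lower bound, signals of the dim group were set no lower than the dimmest probe that an array still read well above background. Groups came from the strain label, and beyond separate mice the labels give no litters, so p-values measure the spread between these mice. The number of arrays limits the precision.

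The 10 genes, the gene lists and the tests were chosen with earlier results of these data known. The genes named are the members, Fas and, from each list, the passing genes with a log2 change of at least 1 in size and otherwise up to 3 passing genes in each direction. Genes named beside these were chosen after their values were seen. A few items that count in the tallies are not reported here. Alternatives were normexp background correction (offset 50), quantile normalization, a median shift, the authors' divided values, other filters, outlier spots kept, an intensity trend, the replicate number or the first number of the array position in the fit, only the arrays of the position that holds both groups (3 MRL mice and 1 LPR mouse), the methods' Student test, the mean of a gene's probes, and each mouse left out.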

Additional observations from a re-analysis of the deposited data

How the results depend on the processing

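The call of Kdr was kept in 10 of 20 other settings. It was lost without a filter on dim probes (adjusted p = 0.0700), with the replicate block (0.0856), with the methods' test after Benjamini-Hochberg (0.0752), and with 5 of the 6 mice left out in turn. It was also lost with the array position in the fit and among arrays of the first position only. There the change of Kdr, -0.66 in both, rests on LPR 1 alone, which says nothing about stability. So 0 member genes were lower in those settings, against 2 with normexp background correction or with an intensity trend, 4 with the methods' test unadjusted, and 0 to 1 with a mouse left out. Over all tested probes, 2422 were lower as reported, against 4540 with normexp, 3424 with an intensity trend and 7103 with that test unadjusted. The lower calls thus rose over the whole array in these settings too. With the position in the fit or among the first position only, the log2 changes of Vegfa and Angpt1 turned positive, to 0.0081 and 0.096. With 1 mouse left out, the change of Tie1 minus that of Tek ranged from -0.0251 to 0.43, that of Flt1 minus Kdr from 0.11 to 0.33, and that of Angpt2 minus Angpt1 from -0.28 to -0.14.

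Over the whole array, 2610 probes were higher and 2422 lower, so 51.9% of the calls were higher. Lower probes numbered 4540 with normexp (35.8% of the calls higher), 1085 without a filter (66.5%), 1107 with the replicate block (66.6%) and 7103 with the methods' test unadjusted. With the position in the fit 1469 were higher and 456 lower, among the first position only 1105 and 309, and with the methods' test after adjustment 1732 and 1345. With a mouse left out, 749 to 2271 were lower. Of the listed genes 20 were higher and 6 lower. Lower genes numbered 15 with normexp, 14 with an intensity trend, 10 with probes above background on all arrays, 2 without a filter, 3 with the methods' test adjusted and 23 unadjusted, and 1 to 5 with a mouse left out. With the position in the fit 11 were higher, and among the first position only 8 were higher and 3 lower. The cause of these shifts was not tested. The deviations of same-numbered MRL and LPR mice correlated at 0.12, 0.02 and 0.01, and those of differently numbered mice at -0.07 to 0.05. With 3 mice a group, whether the numbers pair the mice cannot be told from these values.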
